A study of Homo sapiens with 12 samples.

Results

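The ERBB family, named for the epidermal growth factor receptor EGFR and its relatives, was followed here through 10 genes: the 4 receptors EGFR, ERBB2, ERBB3 and ERBB4, and the 6 ligands AREG, EREG, HBEGF, TGFA, BTC and NRG1. They were taken by gene symbol, without regard to their values, from a count table of 23368 distinct symbols, and each of the 10 was found. The study asked how breast cancer cells respond to a peptide that mimics collagen (GFOGER) or laminin (IKVAV) when they are encapsulated as single cells in an otherwise identical poly(ethylene glycol) hydrogel. MDA-MB-231 cells, an estrogen receptor negative line of the basal subtype, and T47D cells, an estrogen receptor positive line of the luminal A subtype, were grown in these gels for 3 days in medium with fetal bovine serum. The gels were then dissolved with collagenase, RNA from 3 gels of the same composition was pooled for each replicate, and poly(A) RNA was sequenced. Counts were analysed for 3 GFOGER libraries and 2 IKVAV libraries of the MDA-MB-231 line and for 3 GFOGER libraries and 3 IKVAV libraries of the T47D line. All 4 groups carried an integrin-binding peptide and the cell-degradable crosslinker, so each mimic is compared with the other and not with a bare gel. Each line is 1 model of its subtype, and a difference between the lines is not a difference between subtypes.

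ERBB receptors are tyrosine kinases at the cell surface that signal as pairs. EGFR, ERBB3 and ERBB4 bind ligands, ERBB2 has no known ligand and serves as a partner, and ERBB3 has little kinase activity of its own and relies on its partner. The ligands are made as membrane-anchored precursors and released by proteases of the ADAM family. AREG, EREG, HBEGF, TGFA and BTC bind EGFR, EREG, HBEGF and BTC also bind ERBB4, and NRG1 binds ERBB3 and ERBB4. In breast cancer the family is known for amplification of ERBB2 and for high EGFR in many basal tumours, and its main routes into the cell run through RAS and ERK and through PI3K and AKT.

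The largest fold changes of the 9 tested genes between the mimics in MDA-MB-231 cells were those of EGFR, EREG and HBEGF, which lie on 3 different chromosomes. The 250 bases upstream of the annotated RefSeq starts (build GRCh38.p14) of these genes are shown, 5′ to 3′ on the strand of the gene, with 3 short motifs in capitals where they occur: the AP-1 motif (TGA and TCA around any 1 base), the TEAD motif GGAATG, which reads CATTCC on the opposite strand, and the cyclic AMP response element TGACGTCA. EGFR has a second RefSeq start downstream of the first. The windows are EGFR start 1 at chr7:55018767-55019016 on the plus strand, EGFR start 2 at chr7:55109589-55109838 on the plus strand, EREG at chr4:74364895-74365144 on the plus strand and HBEGF at chr5:140346604-140346853 on the minus strand.
EGFR start 1: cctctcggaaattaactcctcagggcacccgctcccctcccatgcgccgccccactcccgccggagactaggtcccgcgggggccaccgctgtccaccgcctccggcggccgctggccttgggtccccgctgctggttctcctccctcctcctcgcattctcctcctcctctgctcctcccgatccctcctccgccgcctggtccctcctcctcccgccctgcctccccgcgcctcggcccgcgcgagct
EGFR start 2: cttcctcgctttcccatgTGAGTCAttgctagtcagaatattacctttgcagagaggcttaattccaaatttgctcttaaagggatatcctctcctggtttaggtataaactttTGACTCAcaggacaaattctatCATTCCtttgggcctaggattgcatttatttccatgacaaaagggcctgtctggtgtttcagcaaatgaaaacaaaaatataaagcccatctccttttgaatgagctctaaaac
EREG: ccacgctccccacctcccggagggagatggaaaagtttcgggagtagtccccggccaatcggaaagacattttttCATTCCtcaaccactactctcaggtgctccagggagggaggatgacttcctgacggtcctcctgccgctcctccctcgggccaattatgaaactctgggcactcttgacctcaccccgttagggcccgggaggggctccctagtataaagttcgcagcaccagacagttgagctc
HBEGF: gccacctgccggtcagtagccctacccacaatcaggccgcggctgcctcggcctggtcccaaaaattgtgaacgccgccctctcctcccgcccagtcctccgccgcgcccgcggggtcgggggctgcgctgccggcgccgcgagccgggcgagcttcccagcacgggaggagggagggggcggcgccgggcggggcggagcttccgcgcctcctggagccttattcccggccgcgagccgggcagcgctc
The second EGFR window held 2 matches to the AP-1 motif and 1 to the TEAD motif, the EREG window held 1 match to the TEAD motif, and the first EGFR window and the HBEGF window held none of the 3. Of 35116 RefSeq upstream windows of the same length, 6.573% held the AP-1 motif, 11.89% the TEAD motif and 1.646% the cyclic AMP response element, on either strand. Among the 10 windows found for 8 of the 10 genes, 2 held an AP-1 match (EGFR start 2 and ERBB2), 2 a TEAD match (EGFR start 2 and EREG) and 1 a cyclic AMP response element (AREG). ERBB3 and NRG1 had no entry in the table of windows.

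AREG has to be set apart from the other members, because its reads could not be placed. In the hg19 assembly (GRCh37) that the authors used, the gene is present in 2 near-identical copies on chromosome 4, AREG at 75310853 to 75320722 and AREGB at 75480629 to 75490486. The entry in the count table spans both, from 75310853 to 75490485. Of the 6 coding segments of AREG, 5 were identical in the copy, and they hold 852 of its 913 coding bases. The start of the second coding segment, at chr4:75312251-75312301 on the plus strand of GRCh37 and again at chr4:75482006-75482056, is shown as an example of a stretch that a read could not assign to 1 copy.
AREG: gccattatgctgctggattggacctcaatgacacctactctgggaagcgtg
Of the 934 stretches of 51 bases in the exons of its coding transcripts, 902 (96.6%) occurred more than once in the genome, against 0% to 2.20% for the other 9 members. The authors' counting left 7 to 17 AREG reads per library. These counts cannot be read as the level of AREG, and its values are given below only to account for the member.

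The libraries held 14338238 to 18452145 reads counted on genes. The marker genes followed the labels of the lines. ESR1, GATA3, CDH1, KRT18 and EPCAM of luminal epithelial cells were higher in T47D cells. All 5 of 5 had an adjusted p below 0.05 and were over 2-fold by edgeR's quasi-likelihood test. VIM, ZEB1, AXL, MSN and CAV1 of mesenchymal-like basal cells were higher in MDA-MB-231 cells, 5 of 5 by the same rule. ZEB1 and CAV1 had too few reads in T47D cells to be tested there, and entered through the line where they were high. Among markers of other cell types, CDH5 had at most 1 read per library and PTPRC at most 10, while in MDA-MB-231 cells PECAM1 reached 237 reads, CD14 187 and LUM 50. Marker genes also moved with the mimic in MDA-MB-231 cells. VIM, AXL, MSN and CAV1 were higher with GFOGER, with AXL at a log2 fold change of 1.42, and ZEB1, CDH1, PECAM1 and LUM were lower, so that 1 of 5 luminal markers, 5 of 5 mesenchymal-like markers and 2 of 3 tested markers of other cell types passed at 0.05 whatever their fold, and the part of these changes in the results below was not tested. T47D IKVAV replicate 3 stood apart from its group, since 1054 genes had an adjusted p below 0.05 between the mimics without it against 6 with it. MDA-MB-231 GFOGER replicate 3 stood apart as well, since 8017 genes passed between the mimics without it against 6040 with it and 3444 to 5291 without another library of that comparison. The RPKM values deposited beside the counts imply library totals of 5191201 to 5774966 for MDA-MB-231 IKVAV replicate 1, the 3 T47D GFOGER libraries and T47D IKVAV replicate 3, and of 19898878 to 22840524 for the other 6, a split that the counts themselves do not show. A lower count in these bulk samples can come from fewer cells of a kind or from less RNA per cell, which cannot be told apart.

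Levels of different genes are compared as counts scaled to a common library size (cpm, as edgeR gives it, scaled by the trimmed mean of M-values) per kilobase of the gene length in the table. On this scale MDA-MB-231 cells were an EGFR line with abundant ligand RNA. T47D cells were an ERBB3 and ERBB2 line with 1 main ligand among the 6 followed. EGF, a ligand outside these 6, is given below. With GFOGER, MDA-MB-231 cells had EGFR at 86.0 ± 5.0 cpm per kb (SD, n = 3), HBEGF at 54.3 ± 1.1, TGFA at 46.6 ± 4.0, ERBB2 at 16.0 ± 1.7, EREG at 9.31 ± 1.1, NRG1 at 6.98 ± 0.34, BTC at 1.81 ± 0.37, ERBB3 at 1.13 ± 0.14 and ERBB4 at 0.037 ± 0.014. With IKVAV, the order was EGFR at 49.9 ± 1.4 cpm per kb (SD, n = 2), TGFA at 34.1 ± 1.8, HBEGF at 22.7 ± 0.094, ERBB2 at 15.8 ± 1.4, EREG at 4.65 ± 0.21, NRG1 at 4.16 ± 0.15, BTC at 2.14 ± 0.14, ERBB3 at 1.67 ± 0.045 and ERBB4 at 0.050 ± 0.013. Every pair of neighbours in these 2 orders had library ranges that did not overlap, and HBEGF and TGFA exchanged places between the mimics. T47D cells with GFOGER had ERBB3 at 76.0 ± 2.9 cpm per kb (SD, n = 3), ERBB2 at 29.9 ± 1.4, TGFA at 10.8 ± 0.49, ERBB4 at 6.44 ± 0.34, EGFR at 2.45 ± 0.47, HBEGF at 1.28 ± 0.19, BTC at 0.42 ± 0.13, EREG at 0.056 ± 0.028 and NRG1 at 0.010 ± 0.0046. With IKVAV the order of T47D cells was the same, and the ranges of HBEGF and BTC overlapped. AREG, at 0.23 to 0.37 cpm per kb in the means of the 4 groups, is left out of these orders.

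The places of EGFR, BTC and ERBB3 in MDA-MB-231 cells depended on the length used. With the union of exons of its coding transcripts in the GRCh37 annotation, a length chosen after the data were seen, EGFR was at 48.9 cpm per kb with GFOGER and 28.4 with IKVAV, below HBEGF (54.3) in the first case and below TGFA (31.0) in the second. With this length ERBB3 was above BTC, at 1.00 against 0.90 cpm per kb with GFOGER, where the libraries overlapped, and at 1.48 against 1.07 with IKVAV. EGFR remained the most abundant receptor in MDA-MB-231 cells, and ERBB3 in T47D cells, with both lengths.

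**Figure D1:**
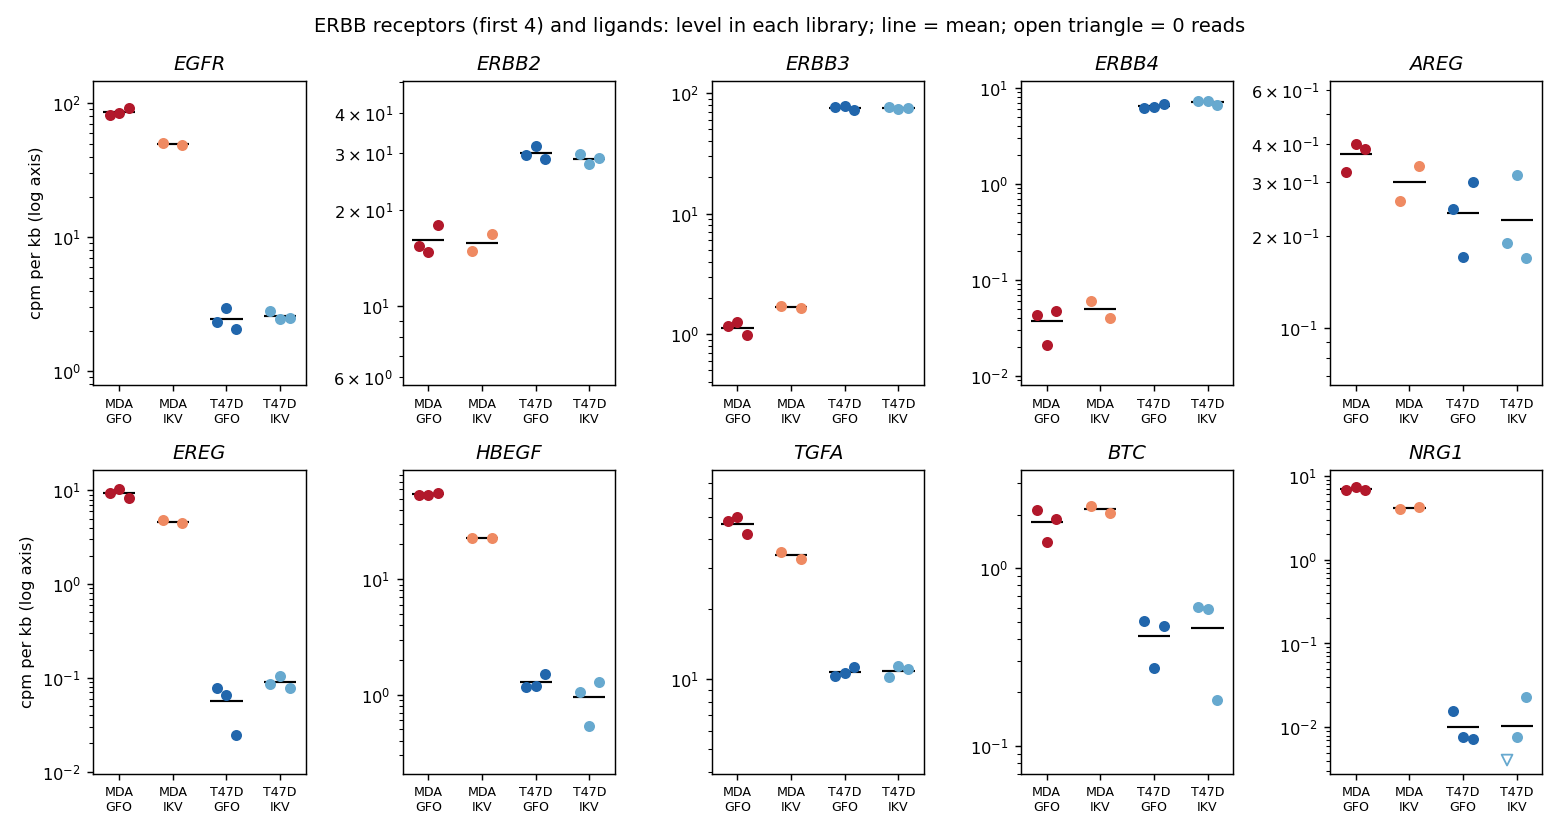
Level of each member in each library, as cpm per kb of the gene length in the table on a log axis, for MDA-MB-231 (MDA) and T47D cells with GFOGER (GFO) or IKVAV (IKV). Points are libraries (n = 3, 2, 3 and 3), lines are group means and the open triangle marks the T47D library with 0 NRG1 reads. EGFR, EREG, HBEGF, TGFA and NRG1 are lower in both IKVAV libraries of MDA-MB-231 cells than in the 3 GFOGER libraries, and levels other than that of AREG shift more between the lines than between the mimics.

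The question of the main comparison is how the mimic changed the family in MDA-MB-231 cells. HBEGF had the largest change and was 2.37-fold higher with GFOGER, EREG was 1.99-fold higher, EGFR 1.71-fold, NRG1 1.67-fold and TGFA 1.36-fold. ERBB3 was the only member that passed the test in the other direction, 1.49-fold lower with GFOGER, and ERBB2 differed by 1.01-fold, within the spread of its libraries. Of the 10 members, 9 had enough reads to be tested, and ERBB4, with 4 to 11 reads per library, did not. Of the 9, 1 had both an adjusted p below 0.05 and a change over 2-fold, against 9.57% of all 14092 genes tested, 3.12% higher with GFOGER. At any fold, 6 of the 9 passed, 5 of them higher with GFOGER and 1 lower, against 42.9% of all genes, 21.4% higher and 21.4% lower. The libraries of the mimics did not overlap for 6 of the 9 members, and for 63% of all genes. Without MDA-MB-231 GFOGER replicate 3 the count at any fold was again 6, and EREG passed 2-fold with HBEGF. The median log2 fold change was 0.44 for the 9 members and 0.0039 for all genes tested.

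Of the receptors, EGFR was at 539.9, 554 and 602 cpm in the 3 GFOGER libraries and at 334 and 321 cpm in the 2 IKVAV libraries. The groups did not overlap, and the lowest GFOGER library was far above the higher IKVAV library. The log2 fold change was 0.78 (SE 0.086), with an adjusted p of 2.72e-06 by edgeR's quasi-likelihood test (Benjamini-Hochberg, over all genes tested). ERBB2, the partner receptor, was at 79.1, 75.5 and 91.8 cpm with GFOGER and at 75.9 and 85.9 cpm with IKVAV. The libraries of the mimics were interleaved, and the log2 fold change was 0.013 (SE 0.11, adjusted p = 0.94 by edgeR). ERBB3, the neuregulin receptor, was low in this line, at 7.22, 7.76 and 6.09 cpm with GFOGER and at 10.6 and 10.2 cpm with IKVAV. Both IKVAV libraries lay above all 3 GFOGER libraries, at a log2 fold change of -0.57 (SE 0.18, adjusted p = 0.0154 by edgeR). The log2 fold change of ERBB3 was -0.54 without MDA-MB-231 IKVAV replicate 1, -0.60 without replicate 2 and -0.54 with the set of RPKM totals as a term. The last of these repeats the first, since IKVAV replicate 1 is the only library of this line in its set. Each of these fits leaves 1 IKVAV library, and in them the size held and the call did not. ERBB4, a further neuregulin receptor, was counted with 9, 4 and 10 reads with GFOGER and 11 and 8 reads with IKVAV, and the mimics overlapped.

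Of the ligands of EGFR, HBEGF, a heparin-binding growth factor made as a membrane precursor, was at 126, 127 and 131 cpm with GFOGER and at 53.7 and 53.4 cpm with IKVAV. The replicates were close to each other and the groups were far apart, at a log2 fold change of 1.25 (SE 0.10, adjusted p = 6.35e-08 by edgeR's quasi-likelihood test). EREG, which encodes epiregulin, was at 43.1, 48.1 and 38.0 cpm with GFOGER and at 22.2 and 20.8 cpm with IKVAV. Its groups did not overlap, and its log2 fold change of 0.99 (SE 0.13, adjusted p = 2.07e-05 by edgeR) lay just inside the 2-fold line. EREG passed this line in 6 of 14 alternative fits, which are not all separate. The replicate block takes up GFOGER replicate 3, and so repeats the fit without that library (1.07 in both). The set of RPKM totals as a term likewise repeats the fit without IKVAV replicate 1 (1.04 in both). TGFA, the transforming growth factor α that was among the first known ligands of EGFR, was at 206, 215 and 182 cpm with GFOGER and at 153 and 142 cpm with IKVAV. The lowest GFOGER library was above the higher IKVAV library, at a log2 fold change of 0.44 (SE 0.097, adjusted p = 0.00169 by edgeR). Without MDA-MB-231 IKVAV replicate 2 the log2 fold change of TGFA was 0.39, with an adjusted p of 0.0632 by edgeR. BTC, betacellulin, was at 2.81, 1.86 and 2.51 cpm with GFOGER and at 2.96 and 2.70 cpm with IKVAV. These ranges overlapped, and the log2 fold change was -0.25 (SE 0.29, adjusted p = 0.529 by edgeR). AREG, for which reads were lost to the repeat, had a log2 fold change of 0.28 (SE 0.46, adjusted p = 0.652 by edgeR).

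NRG1, the ligand of ERBB3 and ERBB4, was at 52.6, 57.4 and 53.1 cpm with GFOGER and at 31.6 and 33.2 cpm with IKVAV. The groups did not overlap, at a log2 fold change of 0.74 (SE 0.11, adjusted p = 8.65e-05 by edgeR). It thus changed in the direction opposite to that of ERBB3, the receptor it binds. The gene gives rise to many isoforms, which a count per gene does not separate.

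**Figure D2:**
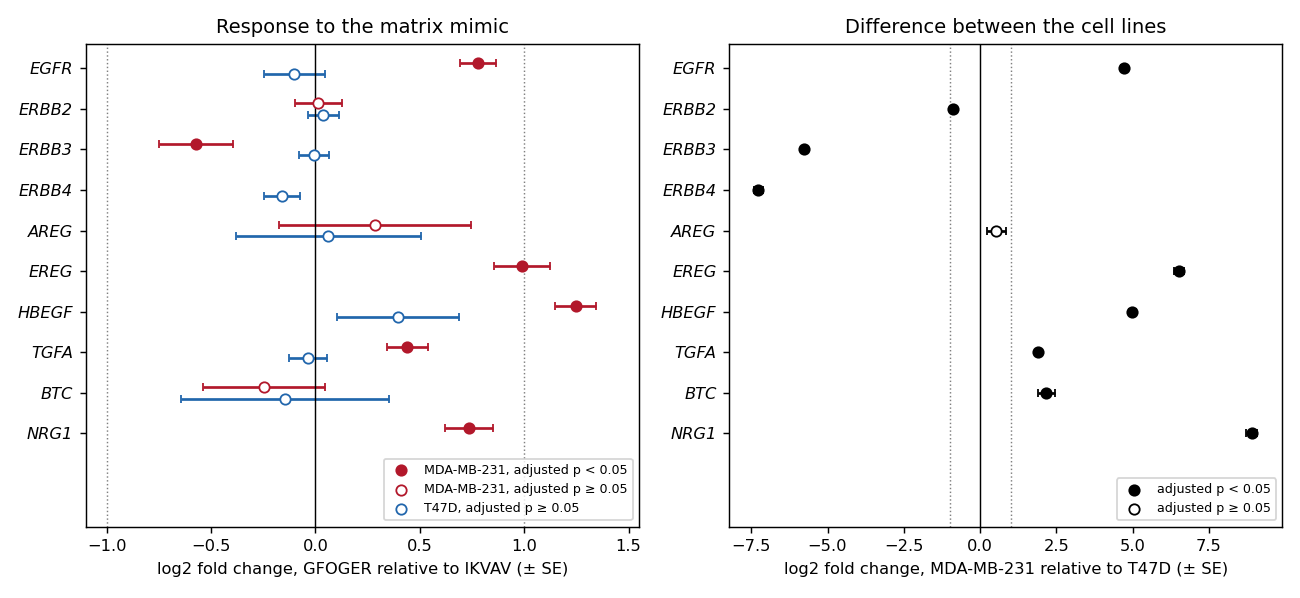
Log2 fold changes with standard errors from edgeR, for GFOGER relative to IKVAV in each line (left) and for MDA-MB-231 relative to T47D cells (right). Filled points have an adjusted p below 0.05, open points do not, dotted lines mark 2-fold, and members that could not be tested have no point. In MDA-MB-231 cells 6 points are filled, from -0.57 for ERBB3 to 1.25 for HBEGF, and in T47D cells none is.

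The same changes can be read as shares of the summed level of the receptors and of the ligands, in cpm per kb. In MDA-MB-231 cells EGFR made up 82.9% to 84.1% of the receptor RNA in the GFOGER libraries and 72.6% and 75.4% in the IKVAV libraries. ERBB2, with a level that changed little, took 14.7% to 16.2% with GFOGER and 21.9% and 24.9% with IKVAV, and ERBB3 a mean of 1.11% and 2.48%. The shares of these receptors did not overlap between the mimics. The summed ligand level was 115 to 123 cpm per kb in the GFOGER libraries and 66.7 and 69.5 in the IKVAV libraries. HBEGF led with GFOGER, at 43.7% to 48.2% of the ligand RNA against 36.7% to 40.4% for TGFA. With IKVAV, TGFA led at 49.3% and 50.9% against 32.8% and 34.0% for HBEGF. The share of EREG was 7.14% to 8.43% with GFOGER and 6.76% and 6.90% with IKVAV, and that of BTC 1.14% to 1.77% and 3.06% and 3.22%, neither of which overlapped between the mimics. That of NRG1, at means of 5.85% and 6.12%, did overlap. With the annotated exon length the mean share of EGFR was 76.9% with GFOGER and 65.5% with IKVAV, and HBEGF and TGFA kept their exchange, at 49.2% and 38.3% with GFOGER and 36.8% and 50.2% with IKVAV.

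**Figure D3:**
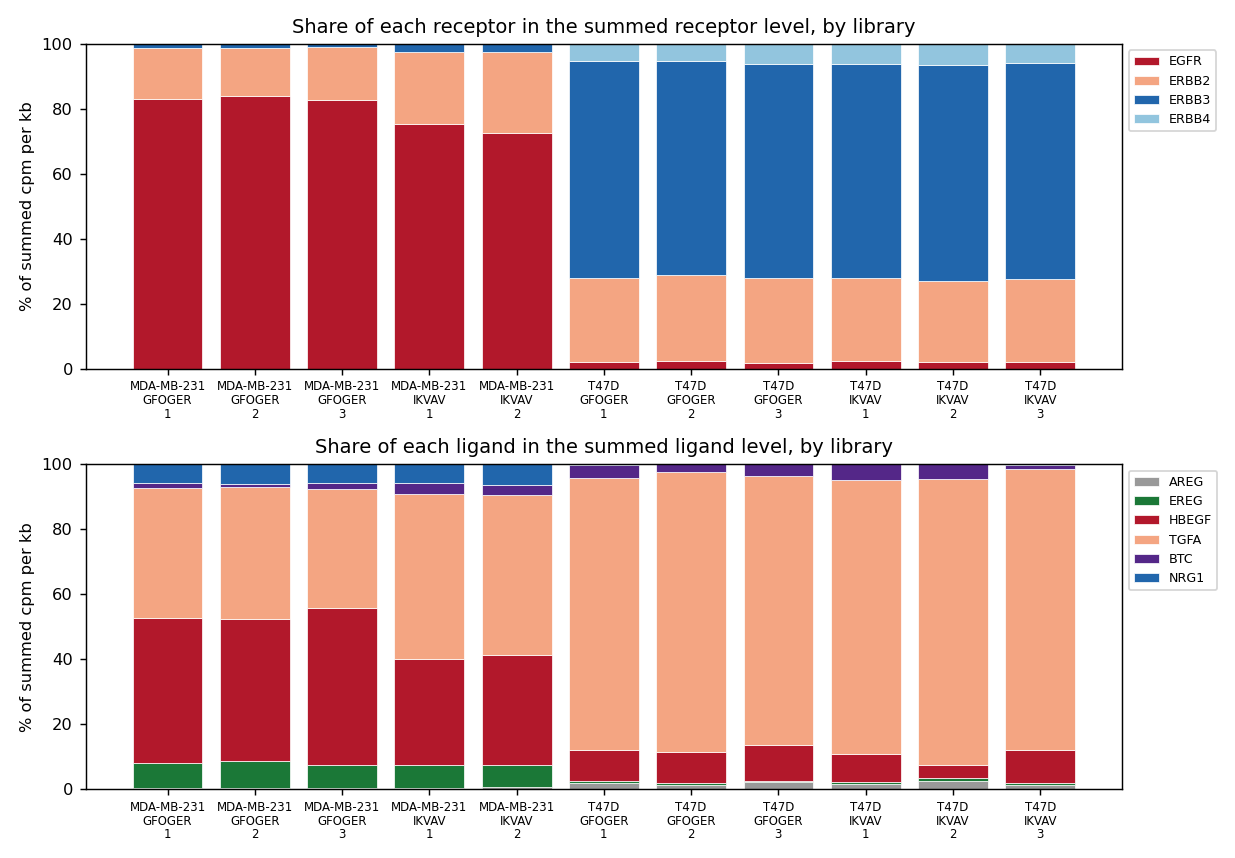
Share of each receptor (top) and of each ligand (bottom) in the summed level of its kind in cpm per kb, in percent, with 1 bar for each library. EGFR fills 72.6% to 84.1% of the receptor bars of MDA-MB-231 cells and ERBB3 65.9% to 66.7% of those of T47D cells, and TGFA fills 83.0% to 87.9% of the ligand bars of T47D cells.

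In T47D cells no response of the family to the mimic was detected. Enough reads were counted for 8 of the 10 members, and EREG and NRG1 were not tested. Of the 8, 0 passed an adjusted p below 0.05 and 2-fold by edgeR's quasi-likelihood test, against 0.022% of all 13642 genes tested, and 0 passed at any fold, against 0.044% of all genes. The libraries of the mimics overlapped for each of the 8, and did not for 16% of all genes. At an unadjusted p below 0.05 the count of members was 0, against 11.2% of all genes. Without IKVAV replicate 3 the count at any fold was also 0. DESeq2 found 0 members at any fold, against 77 of all 13642 genes. With limma's voom and sample quality weights 1 member passed, ERBB4, against 2220 of all 13642 genes. The median absolute log2 fold change of all genes was 0.11 in T47D cells and 0.34 in MDA-MB-231 cells.

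ERBB3 was at 473, 488 and 451 cpm with GFOGER and at 477, 455 and 468 cpm with IKVAV in T47D cells. The libraries were interleaved, at a log2 fold change of -0.0059 (SE 0.071). ERBB2 was at 152, 161 and 147 cpm with GFOGER and at 152, 142 and 149 cpm with IKVAV, which overlapped as well (log2 fold change 0.038, SE 0.076). ERBB4 was at 73.2, 75.9 and 81.3 cpm with GFOGER and at 87.4, 87.1 and 79.5 cpm with IKVAV. Replicates 1 and 2 with IKVAV were above every GFOGER library and replicate 3 was not, and the log2 fold change was -0.16 (SE 0.087, adjusted p = 0.515 by edgeR). Without IKVAV replicate 3 it was -0.22 (SE 0.084, adjusted p = 0.12 by edgeR), and with limma's voom -0.25 (adjusted p = 0.0142). EGFR, which is low in this line, was at 15.4, 19.5 and 13.5 cpm with GFOGER and at 18.6, 16.2 and 16.5 cpm with IKVAV. These ranges overlapped, at a log2 fold change of -0.10 (SE 0.15).

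Of the ligands in T47D cells, TGFA was at 44.5, 45.8 and 48.7 cpm with GFOGER and at 44.0, 49.0 and 47.8 cpm with IKVAV, a log2 fold change of -0.036 (SE 0.091). The libraries of the mimics could not be separated by it. HBEGF was at 2.72, 2.78 and 3.54 cpm with GFOGER and at 2.48, 1.27 and 3.06 cpm with IKVAV. IKVAV replicates 1 and 2 were below every GFOGER library and replicate 3 was not. The log2 fold change of 0.40 (SE 0.29, adjusted p = 0.653 by edgeR) was the largest in absolute size among the 8 members. It became 0.67 (SE 0.29, adjusted p = 0.169 by edgeR) without IKVAV replicate 3 and -0.014 when the set of RPKM totals was a term in the fit. BTC, at 4 to 13 reads per library, had a log2 fold change of -0.15 (SE 0.50), of -0.55 without IKVAV replicate 3 and of 1.18 with the set of RPKM totals as a term. In T47D cells IKVAV replicate 3 is the only IKVAV library in the same set as the GFOGER libraries. The values of HBEGF and BTC with this term thus compare GFOGER with that 1 library, which stood apart. AREG had one of 0.061 (SE 0.44). EREG was counted with 6, 5 and 2 reads with GFOGER and 6, 8 and 6 reads with IKVAV, and NRG1 with 2, 1 and 1 reads and 0, 1 and 3 reads. The library with 0 NRG1 reads allows a level of up to 0.209 cpm, for counting error only.

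The responses of the lines were then compared with each other by the interaction of line and mimic. EGFR and the ligands HBEGF and TGFA had a larger log2 change towards GFOGER in the MDA-MB-231 line, and ERBB3 a larger change away from it. EREG, NRG1 and ERBB4 entered this fit through the reads of 1 line alone, and their values are given as a description. Of the 10 members, 1 passed an adjusted p below 0.05 and 2-fold, against 6.42% of 15320 genes tested, and 5 passed at any fold, against 21% of all genes, 4 of them with a positive difference and 1 with a negative one, against 10.9% and 10.2%. EREG supplied the call over 2-fold and 1 of the 5, and with a library left out the count of 5 became 3 to 5. The log2 difference of the responses was 0.89 for EGFR (SE 0.16, adjusted p = 6.11e-04 by edgeR's quasi-likelihood test). It was 0.48 for TGFA (SE 0.13, adjusted p = 0.0109 by edgeR), with an adjusted p of 0.0968 without MDA-MB-231 IKVAV replicate 2, and -0.56 for ERBB3 (SE 0.14, adjusted p = 0.00714 by edgeR). The same difference was 0.86 for HBEGF (SE 0.26, adjusted p = 0.0259 by edgeR), but in 8 of 19 alternatives the adjusted p was above 0.05, up to 0.146 without T47D IKVAV replicate 3. The value of EREG, 1.69 (SE 0.49, adjusted p = 0.0178 by edgeR), rested on 2 to 8 reads per T47D library, too few for a test within that line, so that a response of EREG in one line alone is not shown. Without T47D GFOGER replicate 3, the library with 2 reads, it was 1.34, with an adjusted p of 0.0605 by edgeR, and without T47D IKVAV replicate 2, the library with 8, the adjusted p was 0.067. For NRG1 the difference was 0.82 (SE 0.93, adjusted p = 0.603 by edgeR), where 8 reads in all T47D libraries set the error, so that a different response could not be detected at this depth.

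The lines differed far more from each other than the mimics did. MDA-MB-231 cells had more EGFR and more of each of the 6 ligands other than AREG, and T47D cells had more ERBB2, ERBB3 and ERBB4. At an adjusted p below 0.05 and over 2-fold by edgeR, 8 of the 10 members differed, 6 higher in MDA-MB-231 cells and 2 higher in T47D cells, against 46.3% of all 15320 genes tested, 23.7% and 22.6% by direction. With ERBB2 at a smaller fold, 9 of the 10 passed, against 84.5% of all genes, and the libraries of the lines did not overlap for the same 9, against 65.4% of all genes. Most genes thus differed between the lines, and for the members the size and direction of the differences are given. EREG, NRG1 and ERBB4 had enough reads in 1 line alone, and entered the test through the line where they were high.

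The mean log2 difference of MDA-MB-231 relative to T47D cells, over both mimics, was 4.71 for EGFR (SE 0.083, adjusted p = 5.97e-21 by edgeR). For ERBB3 it was -5.77 (SE 0.077) and for ERBB4 -7.26 (SE 0.14), with the higher level in T47D cells. ERBB2 was 1.83-fold higher in T47D cells, a log2 difference of -0.87 (SE 0.069, adjusted p = 2.70e-10 by edgeR), the smallest among the receptors. NRG1 had the largest difference of the family, with 3837 reads over the 5 MDA-MB-231 libraries and 8 over the 6 T47D libraries. The ratio of these counts was 566, each taken relative to library totals scaled by the trimmed mean of M-values. Its exact 95% interval of 287 to 1312 covers counting error only. EREG, with 2900 and 33 reads, had a ratio of 104 (73.7 to 151), and HBEGF, with 8309 and 262 reads, one of 37.4 (33.1 to 42.5). These ratios pool 3 GFOGER and 2 IKVAV libraries of MDA-MB-231 cells against 3 and 3 of T47D cells. The edgeR difference, which weights the mimics equally, was 477-fold for NRG1, 91.7-fold for EREG and 31.8-fold for HBEGF. TGFA, among the 6 the ligand that both lines had in plenty, was higher in MDA-MB-231 cells by a log2 difference of 1.89 (SE 0.064), and BTC by 2.17 (SE 0.28). AREG had one of 0.52 (SE 0.31, adjusted p = 0.124 by edgeR), for the reads that could be placed. The receptors of NRG1 were thus high in the line where the NRG1 gene was counted with 0 to 3 reads per library, and low in the line where it was counted with 491 to 951.

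Genes around the receptors were counted by lists written from general knowledge, in both comparisons of the mimics. Each count in MDA-MB-231 cells is to be read beside all genes tested there, of which 21.4% were higher and 21.4% lower with GFOGER at an adjusted p below 0.05, 42.9% in all. Of 15 feedback inhibitors 8 were lower and 1 was higher at an adjusted p below 0.05, with a median log2 fold change of -0.25 against 0.0039 for all genes tested. The largest decreases were in SPRY1, an inhibitor of RAS signaling (log2 fold change -1.26, SE 0.14), and DUSP4, a phosphatase of MAP kinases (-0.93, SE 0.081), and SPRY2 was the 1 that was higher (0.28, SE 0.097). Of 12 adaptors and trafficking factors 6 were lower and 1 was higher, with a median of -0.29. CBLB, a ubiquitin ligase that marks receptors for degradation, was lower by a log2 fold change of -1.53 (SE 0.14), the adaptor GRB7 by -0.87 (SE 0.26), and the adaptor SHC1 was higher by 0.33 (SE 0.091).

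Of 10 genes known as outputs of ERK, 3 were higher with GFOGER and 1 was lower in MDA-MB-231 cells, with a median of -0.044, beside 42.9% in all for the genes tested. FOSL1, a subunit of AP-1, was higher by a log2 fold change of 1.02 (SE 0.11), CCND1, the cyclin D1 gene, by 0.77 (SE 0.087), and EPHA4, an ephrin receptor, was lower by -0.47 (SE 0.13). Of 9 ligand sheddases and their regulators 3 were higher and 1 was lower, a share close to that of all genes (42.9%). The rhomboid protease RHBDL2 was higher by 0.66 (SE 0.17), the metalloprotease ADAM19 by 0.50 (SE 0.12), and RHBDF1, which guides ADAM17 to the cell surface, was lower by -0.63 (SE 0.12). ADAM17 itself was also higher, by 0.42 (SE 0.11). Of 10 RAS and MAP kinase genes 2 were higher, NRAS by 0.72 (SE 0.097) and MAP2K1 by 0.32 (SE 0.10), and 0 were lower. Of 11 PI3K and AKT genes 2 were lower, PIK3R3 by -0.80 (SE 0.14) and PDPK1 by -0.38 (SE 0.11). In the same list 2 were higher, among them PIK3CD by 0.38 (SE 0.13). Of 5 further ligands of the family 2 could be tested and 0 passed by edgeR. In T47D cells 0 genes of these 7 lists had an adjusted p below 0.05 by edgeR.

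**Figure D4:**
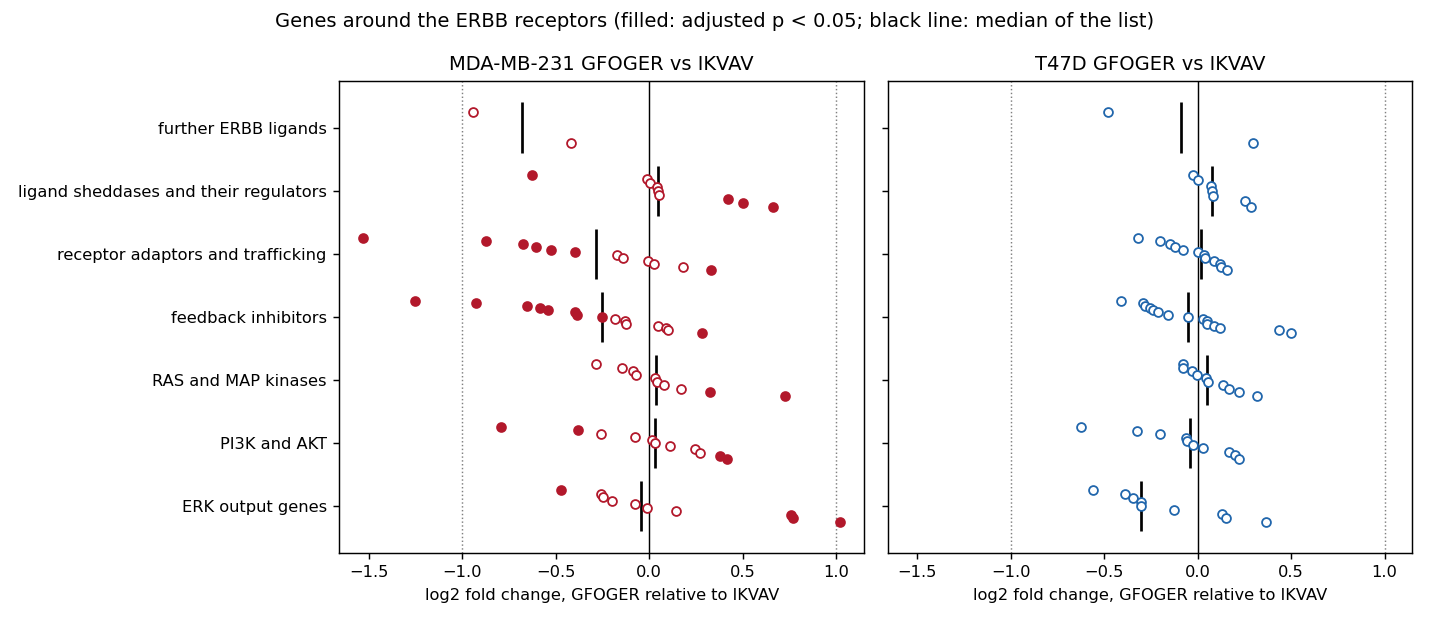
Log2 fold change of GFOGER relative to IKVAV for each tested gene of 7 lists around the ERBB receptors, in MDA-MB-231 cells (left) and T47D cells (right). Filled points have an adjusted p below 0.05 by edgeR, black lines are medians of a list and dotted lines mark 2-fold. In MDA-MB-231 cells the filled points of the adaptors and of the feedback inhibitors lie mostly below 0, and in T47D cells no point is filled.

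Between the lines, 9 of the 10 ERK output genes were higher in MDA-MB-231 cells at over 2-fold and 0 were lower, against 23.7% and 22.6% of all genes, led by FOSL1 at a log2 difference of 8.78 (SE 0.14). The feedback inhibitors had 11 of 15 higher over 2-fold, against the same 23.7%, led by DUSP6, a phosphatase of ERK, at 5.41 (SE 0.065). The median log2 difference of these lists was 4.90 and 2.44, beside -0.015 for all genes tested. Over 2-fold, 5 of 9 sheddases and their regulators were higher and 1 was lower. Of 12 adaptors and trafficking factors 4 were higher, led by SOS1 (1.26, SE 0.089), and 2 lower, led by GRB7 (-2.21, SE 0.16). Of 10 RAS and MAP kinase genes 2 were higher, led by NRAS (1.12, SE 0.065), and 0 lower. Of 11 PI3K and AKT genes 3 were higher and 2 lower, with a median of -0.82, and of 3 tested further ligands 1 and 2. These counts also stand beside 23.7% and 22.6% of all genes. Among the further ligands, NRG2 had means of 1.37 cpm with GFOGER and 2.64 cpm with IKVAV in MDA-MB-231 cells and of 0 and 0.040 cpm in T47D cells, and NRG4 was higher in T47D cells (-2.89, SE 0.35). EGF was higher in T47D cells as well (-1.65, SE 0.13). Its means with GFOGER and IKVAV were 22.0 and 17.6 cpm there, and 5.41 and 7.17 cpm in MDA-MB-231 cells. ADAM19 was the sheddase with the largest difference, at 7.37 (SE 0.14), with means of 0.45 and 0.42 cpm in T47D cells. ADAM15 was higher in T47D cells (-1.35, SE 0.070). PIK3R1, a regulatory subunit of PI3K, was higher in T47D cells (-2.44, SE 0.071). Some genes had enough reads for a test in 1 line alone, among them ETV5, ADAM19, NRG2 and NRG4. They entered these counts through the line where they were high.

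The genes most like EGFR over the 11 libraries, by Pearson correlation of log2 cpm among 15320 genes, were SRPX (r = 0.999), PPP1R15A (0.999) and MPRIP (0.999). Those most like HBEGF were ETS2 (r = 0.998), CD274 (0.998) and CAP1 (0.998). These values mostly reflect the gap between the lines, which all 11 libraries share, and are given as a description. Within MDA-MB-231 cells SRPX had means of 40.8 cpm with GFOGER and 16.7 cpm with IKVAV, and ETS2, a transcription factor, 59.9 and 30.4 cpm.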

How the data were processed

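RNA from 4 conditions was measured by stranded poly(A) sequencing, and per the submitters' processing notes the authors used FastQC, Trim Galore 0.4.4, TopHat2 2.1.0, bedtools 2.17, SAMtools 1.4, HTSeq 0.6.1p1 and edgeR 3.16.5 on hg19. The strand option of the counting is not given in the sources used here, so reads of EGFR and of an antisense gene within it, EGFR-AS1, cannot be told apart. The deposited table holds read counts per gene, which the authors did not normalize, and RPKM values, which the authors computed from the counts, the gene length and 1 total per library. All results come from the counts, and from the RPKM values only the implied library totals were taken. The table had 24656 rows, and for 1288 rows that repeat a symbol the entry with the most reads was kept. A further IKVAV sample of MDA-MB-231 cells, which its label calls an omitted outlier, was not analysed here.

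Counts were fitted with edgeR 4.0.16 in R 4.3.3 (trimmed mean of M-values, filterByExpr at its defaults, quasi-likelihood test, Benjamini-Hochberg adjustment over all genes tested), each line on its own for the mimics and all 4 conditions together for the lines and the interaction. Calls needed an adjusted p below 0.05, with or without 2-fold (an absolute log2 fold change above 1). Standard errors are the log2 fold change over the root of the F statistic. Correlations used log2 cpm with a prior count of 2. For the MDA-MB-231 fit edgeR gave a biological coefficient of variation of 0.0933, and for T47D 0.0975. Precision is limited by 2 or 3 libraries per group, and intervals of count ratios are exact 95% intervals that cover counting error only. The libraries are separate pools of gels, and p-values measure the spread between them. Replicates of a group differed by more than sampling noise, so each counted as 1 sample. Libraries with the same replicate number were not treated as pairs, as the correlations of their deviations from the group means were -0.060 to 0.016. On simulated counts the test recovered, at any fold, 90 of 100 genes given a log2 change of 0.75 in MDA-MB-231 cells among 13914 genes. It recovered 97 of 100 in T47D cells among 13527, and 65 of 100 for the interaction among 15125. Changes were given only to genes with a mean of at least 100 reads, and no library was simulated to stand apart. These shares thus do not cover members with fewer reads, such as HBEGF, BTC and AREG in T47D cells, with at most 62 reads per library. Repeats were counted over stretches of 51 bases in GRCh37, upstream windows came from RefSeq on GRCh38.p14, and 3 motifs were searched on both strands.

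The 10 members and the lists were chosen with earlier results of these data known, and so were the tests. Genes were named by rule: the members in every comparison, and the markers. The 3 genes most correlated with EGFR and with the member of largest change were also named. Of each list, at most the 2 largest increases and 2 largest decreases among genes with an adjusted p below 0.05 were named. Between the lines it was the largest difference of a list each way, among genes over 2-fold. CD14, PTPRC and CDH5 were markers only. EGF, ETV5 and ADAM17 were named outside this rule. Alternatives were DESeq2 1.42.0, limma 3.58.1 with voom and sample quality weights, other scalings and filters, the replicate block, the 2-fold line inside the test, the adjusted p alone, the set of RPKM totals as a term, 1 fit of all conditions, each library left out in turn and, added after the data were seen, the annotated exon length. Values of 1 gene of the PI3K and AKT list are not reported here.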

Additional observations from a re-analysis of the deposited data

Results flagged for a closer look

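The interaction of line and mimic had an adjusted p below 0.05 for 5 members by edgeR's quasi-likelihood test, and for 3 to 5 with a library left out. The log2 difference (response of MDA-MB-231 cells minus that of T47D cells) was 0.89 for EGFR, higher with GFOGER by 0.78 in MDA-MB-231 cells and at -0.10 in T47D cells. For EREG it was 1.69, but EREG had 2 to 8 reads in each T47D library and was not tested in that line, and the adjusted p was 0.0605 without T47D GFOGER replicate 3 and 0.067 without T47D IKVAV replicate 2. For HBEGF it was 0.86, with an adjusted p above 0.05 in 8 of 19 alternatives, the replicate block among them. For TGFA it was 0.48, with an adjusted p of 0.0968 without MDA-MB-231 IKVAV replicate 2, and for ERBB3 it was -0.56, where ERBB3 was lower with GFOGER in MDA-MB-231 cells by a log2 fold change of -0.57 and at -0.0059 in T47D cells. The groups held 2 or 3 libraries, too few to test for a single outlying library within a group.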

How the results depend on the processing

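Of 614 values of members under alternative settings, 561 kept their direction and their side of the threshold, 15 lost and 1 gained an adjusted p below 0.05 and 37 changed sign, and all 37 belonged to values that did not pass. The 8 calls between the lines held in each alternative except a minimum of 10 counts in every library, which left 4 since fewer members were tested. In MDA-MB-231 cells the 1 call became 2, EREG joining HBEGF, without a filter, with the replicate block, with voom and with the set of RPKM totals as a term, and it became 0 with the 2-fold line inside the test and 6 with the adjusted p alone. Leaving out a library gave 1 to 2 calls, with 2 without MDA-MB-231 GFOGER replicate 3 or IKVAV replicate 1. T47D cells gave 0 calls in all alternatives. The 1 call of the interaction became 0 with at least 10 counts in every library and with the 2-fold line inside the test, 5 with the adjusted p alone, 2 with the set of RPKM totals, and 0 to 2 with a library left out (2 without T47D GFOGER replicate 2, 0 without T47D GFOGER replicate 3). With the replicate block the interaction of HBEGF was 0.77 and no longer passed. Where leaving out a library left 1 IKVAV library of MDA-MB-231 cells, its spread was taken to be that of the other libraries in the fit. In the fits of 1 line, the set of RPKM totals as a term also leaves 1 IKVAV library to set the difference between the mimics. That library is replicate 2 in MDA-MB-231 cells and replicate 3 in T47D cells. In the MDA-MB-231 fit the replicate block likewise takes up GFOGER replicate 3, so these alternatives are not all separate. The cause of these changes was not tested.

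Sign changes were as follows, on the log2 scale. ERBB2 in MDA-MB-231 cells was -0.018 with upper-quartile scaling, -0.0084 with library size alone, -0.077 with the replicate block, -0.059 with voom, -0.074 with the set of RPKM totals and -0.081 to 0.11 with a library left out. In T47D cells ERBB3 was 0.0015 with library size alone, AREG -0.075 with voom, and with the set of RPKM totals ERBB3 was 0.013, HBEGF -0.014 and BTC 1.18. With a library left out in T47D cells, ERBB3 ran from -0.031 to 0.017, EGFR from -0.26 to 0.0054, AREG from -0.15 to 0.40, BTC from -0.55 to 0.099 and TGFA from -0.081 to 3.3e-05. In the interaction NRG1 was -0.25 and BTC 0.016 with voom, and AREG -0.34 with the set of RPKM totals. With a library left out in the interaction, ERBB2 ran from -0.12 to 0.060, ERBB4 from -0.51 to 0.050, BTC from -0.35 to 0.31, AREG from -0.11 to 0.44 and NRG1 from -0.37 to 1.31.

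Of 190 alternative levels per length, 29 moved by more than the spread between libraries, most of them with the annotated exon length. Depth limits AREG, BTC and, by line, ERBB4, EREG and NRG1, which had 17 reads or fewer in at least 1 group.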
